A study of Mus musculus with 40 samples.

Results

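A set of 739 exon bins in 465 genes was listed for both sexes in a comparison of Rbm20 knockout with wildtype mouse hearts, out of 36400 bins listed in either sex. An exon bin is a stretch of a gene's exons that DEXSeq, a method for differential exon usage, counts as 1 unit, and bins are numbered along the gene. A bin was taken when it stood in both the female and the male exon table, each of which lists bins with p of at most 0.05 for knockout against wildtype. It also had to have a mean of at least 50 raw reads per library in each table and a gene other than Ttn. Of the 2472 bins in both tables, 121 lay in Ttn and 1612 were under the read minimum. Left ventricle RNA was sequenced from 20 mice aged 10 weeks in 4 groups of 5, which were wildtype females, Rbm20 knockout females, wildtype males and Rbm20 knockout males. Each mouse had 2 libraries, summed here, except for 1 knockout female with a single library among the 39 used.

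RBM20 is an RNA-binding protein of striated muscle that represses the inclusion of exons in the transcripts of sarcomere, Z-disc and calcium-handling genes. It is best known for shortening the spring region of titin, and mutations in the human gene cause dilated cardiomyopathy. Loss of such a repressor is known to let silenced exons into the mature mRNA, and competing exons of the same gene then carry a smaller part of the transcripts.

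The knockout-against-wildtype contrast in each sex chose the bins, so the size of a change in either sex is given as a description, without a test. The rule fixed no direction, and the female and male comparisons share no mouse, so whether a bin moved the same way in both sexes was not set by the rule. The value used throughout is the ratio of a bin's reads to the reads in the row of its gene in the same mouse, in percent. A change is the knockout mean minus the wildtype mean of the log2 ratio, with 0.5 reads added to bin and gene, and its SE comes from the spread of 5 against 5 mice. Ratios of several bins do not sum to 100%: those of Ndufv3 bins 4 and 5 together exceed it. The 2 libraries of a mouse differed with a median SD of 0.0992 in females and 0.115 in males on the log2 scale, beside 0.137 and 0.140 between mice of a group.

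Libraries held 2351987 to 16973229 reads in genes. Rbm20, the knocked-out gene on chromosome 19, had 1140 ± 125.2 normalized counts in wildtype females and 404 ± 99.3 in knockout females (SD, n = 5). In males, whose table was normalized separately, it had 842 ± 40.3 and 272 ± 35.3. Rbm20 bins 6 and 7 held 9 to 46 and 8 to 35 reads in the wildtype mice and 0 in each of the 10 knockouts. Rbm20 bin 1 held 8 to 27 reads in the wildtypes and up to 19 in a knockout, so part of the transcript was still read. These bins all lay under the read minimum. The ventricular myosin light chain Myl2 had 106810 ± 11386 normalized counts in wildtype and 117950 ± 15851 in knockout females, and 99951 ± 19395 and 110770 ± 12786 in males. The atrial light chain Myl7 reached 8051 normalized counts in 1 knockout female, 1416 in 1 wildtype female, 1223 in another knockout female and 692 in 1 wildtype male, and the directions reported below were recounted without these 4 mice. The summed fibroblast markers, all 12 measured, ranged from 33520 to 42588 in wildtype and 42982 to 57354 in knockout females, and from 22807 to 37517 and 34235 to 45526 in males. Of 9 atrial markers, 8 were measured in females and 9 in males. Their summed level ranged from 5053 to 11322 in wildtype and 8841 to 41536 in knockout females. In males it ranged from 4048 to 8359 and 9186 to 15527, and the groups were apart. The atrial list includes Nppa, and whether its sum follows the amount of atrial tissue was not tested. Myl7, which is on this list, went the other way in males, at 0 to 692 in wildtypes and 0.213 to 1.58 in knockouts. The summed endothelial markers, 15744 to 18557 in wildtype and 12050 to 14811 in knockout males, were also apart, while in females they overlapped, at 16280 to 21427 and 15922 to 18773. No fibroblast, endothelial, macrophage, atrial, adipocyte, red blood cell or Schwann cell marker gene held a member bin. The part of cell makeup in the bin changes was not tested, and in bulk tissue fewer cells of a type and less RNA per cell cannot be told apart.

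Of the 739 bins, 718 in 450 genes had a row for their gene in both gene tables, and the other 21, in 15 genes with predicted-gene or microRNA names, have no ratio. In 622 of the 718, in 398 genes, the mean ratio was at most 100%. In the other 96, in 59 genes, the bin held more reads than the row of the gene it is named for. Genes of 74 of these 96 bins (77.1%) overlapped another gene in the deposited gene tables, beside 315 of the 622 (50.6%). For a bin over 100%, the gene row cannot be the source of all of its reads, and its ratio is not a share of a transcript. The counting's use of strand is not given in the sources used here, so reads of genes that overlap on opposite strands cannot be told apart. Most members stood alone in their gene, with 349 genes holding 1 bin and 28 holding 4 or more. Most of the genes moved little as a whole: by the authors' deposited table, the log2 fold change of the gene was under 0.5 in size in 401 of 450 genes in females and in 399 in males.

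Members changed in the same direction in both sexes in 444 of 718 cases (61.8%), 228 higher and 216 lower in the knockouts, and 273 went opposite ways. Over all 2393 bins of both tables with a gene row, Ttn included, the figure was 71.5%, so the agreement over all members was not above that background. The typical change was small, with a median size of 0.18 in females and 0.22 in males on the log2 scale. Agreement followed size. Where the smaller of the female and male changes was under 0.1, 96 of 211 bins agreed in direction, and from 0.1 to 0.2 it was 116 of 229. From 0.2 to 0.3 it was 102 of 135, from 0.3 to 0.5 it was 54 of 63, and from 0.5 upward it was 76 of 80. All 48 bins with a ratio of at most 100% and a change of 0.5 or more in both sexes agreed, in 23 genes. With 1 bin a gene, the most read in females, 251 of 450 agreed (55.8%).

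**Figure D1:**
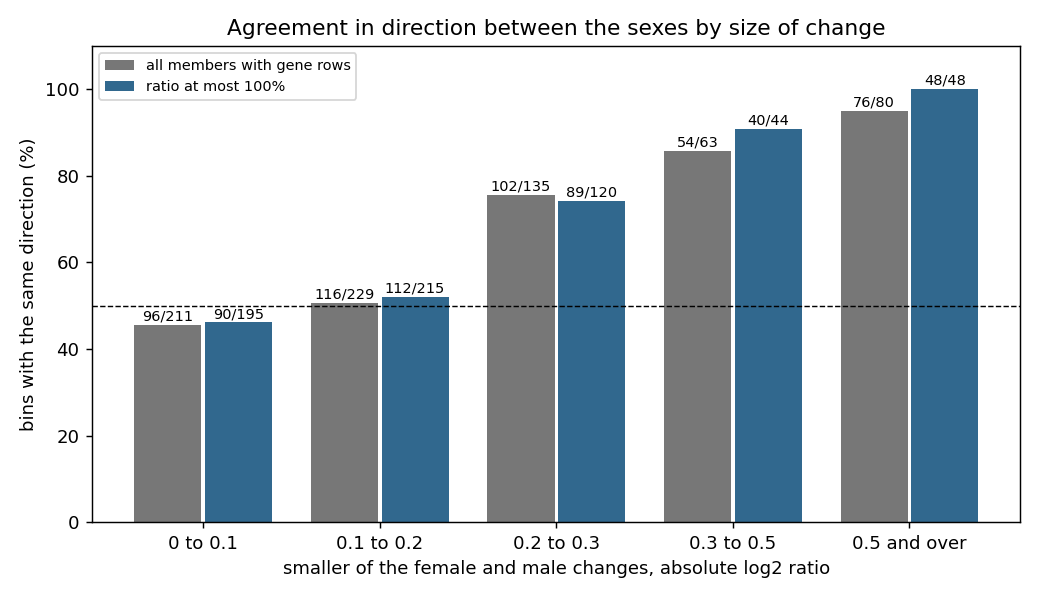
Percent of bins whose knockout change had the same sign in both sexes (vertical axis), by the smaller of the female and male changes in size (log2 ratio, horizontal axis), for all 718 bins with a gene row (grey) and the 622 with a ratio of at most 100% (blue); labels give bins that agreed over bins in the class and the dashed line is 50%. Agreement is 96 of 211 in the lowest class and 76 of 80 in the highest.

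The ratios of the 5 knockout and 5 wildtype mice did not overlap in 140 of 718 members in females (19.5%) and in 172 in males (24%). Among all bins over the minimum and with a gene row, they did not overlap in 11.6% of the female and 10.6% of the male table, but the members were chosen on this contrast in both sexes and nothing is read from the excess. Both sexes were apart in 68 of 718 members, a smaller share than the 305 of 2393 (12.7%) among all bins of both tables, Ttn included. Of the 68, 67 moved the same way, as did 297 of the 305, so this agreement was not particular to the members. Tm9sf2 bin 14 was the exception among the 68. By the authors' deposited tables, 215 of the 739 members had an adjusted p of at most 0.05 in females, beside 5.53% of all bins listed in the female table. In males it was 308, beside 9.06% of the male table. Those shares cover bins of any read depth and the members were chosen on this contrast, so nothing is read from the excess. In both sexes 157 members passed. Of the 147 of these with a gene row, 140 agreed in direction. Of the 368 that passed in neither sex, 226 went opposite ways.

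**Figure D2:**
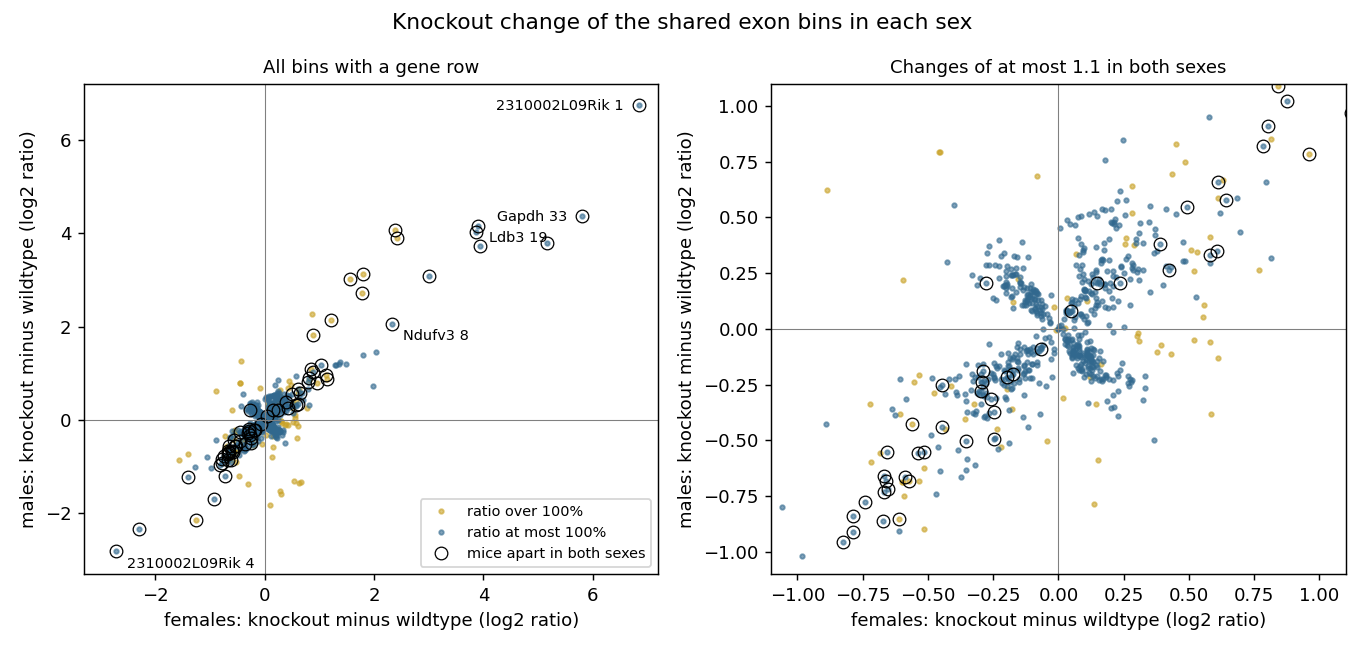
Knockout minus wildtype log2 ratio of each of the 718 bins in females (horizontal) and males (vertical), over the full range (left) and for changes of at most 1.1 (right), with bins over 100% in ochre, the others in blue, and bins whose mice did not overlap in either sex's comparison circled. Large changes lie along the diagonal, while small ones fill all 4 quadrants; of the circled bins, Tm9sf2 bin 14 lies off the diagonal.

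Ldb3 (chr14:34248560-34310639, minus strand, GRCm39) encodes ZASP, a PDZ and LIM protein that anchors the Z-disc, and is a known RBM20 target. Its 6 member bins split into 4 that were nearly absent from wildtype hearts and 2 that were lower in the knockouts. Bin 17 held 0.482%, 0.382%, 0.411%, 0.353% and 0.433% of the gene's reads in the 5 wildtype females, and 6.28%, 5.78%, 5.93%, 7.61% and 6.10% in the knockout females. In wildtype males it held 0.456%, 0.507%, 0.544%, 0.614% and 0.560%, and in knockout males 8.33%, 6.78%, 6.19%, 7.06% and 7.34%. Every knockout lay far above every wildtype, by 3.93 ± 0.10 in females and 3.73 ± 0.10 in males on the log2 scale (SE), or 15.3-fold and 13.2-fold. Bins 16, 18 and 19 moved with it, by 3.01 to 3.90 in females and 3.09 to 4.16 in males. Bin 21, which held 15.5% ± 0.78 of the gene's reads in wildtype females and 16.2% ± 0.81 in wildtype males (SD, n = 5), held 9.07% ± 1.5 and 8.66% ± 1.1 in the knockouts. The changes of bin 20 were -0.67 ± 0.11 and -0.86 ± 0.09, and none of the 6 bins had overlapping mice. The gene itself was level, with log2 fold changes of 0.12 in females and -0.02 in males in the authors' deposited table.

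A pair of Synaptopodin-family genes, which encode actin-binding proteins of the Z-disc, had a bin with a lower ratio in the knockouts. Synpo2 bin 1 held 17.4%, 16.2%, 17.1%, 14.2% and 12.1% in wildtype females and 8.31%, 7.85%, 8.08%, 9.37% and 9.52% in knockout females. In males the values were 14.3%, 15.3%, 13.6%, 12.3% and 12.6% in wildtypes against 6.80%, 4.50%, 7.35%, 9.94% and 7.44% in knockouts. All knockouts were below all wildtypes, with changes of -0.82 ± 0.11 in females and -0.96 ± 0.19 in males, while Synpo2 bin 9 was 0.17 and 0.31 higher. Synpo2l bin 5 went from 7.09% ± 1.7 to 3.58% ± 0.98 in females and from 5.67% ± 1.1 to 2.81% ± 0.65 in males. The Synpo2l gene was higher as a whole, with log2 fold changes of 1.5 and 2.02 in the authors' deposited table, and per read in the library bin 5 was higher in the knockouts, by 0.57 in females and 0.99 in males. Its lower ratio is therefore a smaller part of a larger total.

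Bins of other sarcomere genes on the RBM20 target list differed less. Pdlim5, a PDZ and LIM protein of the Z-disc, was named after its values were seen: its bin 26 held 4.93% ± 0.19 in wildtype and 3.46% ± 0.28 in knockout females, and 4.65% ± 0.31 and 3.18% ± 0.32 in males, with no overlap. Myom1, which crosslinks thick filaments at the M-band, had a bin 29 that held 0.282%, 0.270%, 0.353%, 0.504% and 0.676% in wildtype and 1.79%, 1.62%, 2.19%, 1.60% and 0.903% in knockout females. Wildtype males held 1.03%, 0.491%, 0.621%, 0.410% and 0.360%, and knockout males 0.668%, 1.54%, 1.17%, 0.563% and 0.887%. The female groups were apart and the male groups overlapped, with changes of 1.99 ± 0.33 and 0.73 ± 0.37. Tnnt2, cardiac troponin T, had 6 member bins that agreed between the sexes, of which 5 were below 1% of the gene. In Nexn, which encodes the actin-binding Z-disc protein nexilin and was also named after its values were seen, 4 of 4 bins were lower in both sexes, by 0.25 to 0.46 in females and 0.20 to 0.64 in males.

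Tpm1, which encodes the thin-filament protein tropomyosin, showed the contrary picture. Bins 37 to 42 were 0.08 to 0.10 lower in knockout females and 0.09 to 0.17 higher in knockout males, all with overlapping mice. Bins 44 and 45, at under 0.21% of the gene's reads in every group mean, were higher in both sexes. Over the 16 RBM20 target genes that held a member, of 49 on that list, 71 of 83 bins agreed in direction, 44 higher and 27 lower. This stood beside 71.5% of all bins of both tables. Apart in both sexes were 12, most of them in Ldb3 and Myh7, beside 12.7% of all bins. Myh7 alone holds 39 of the 83. Over the sarcomere and Z-disc list 72 of 94 bins agreed (76.6%), beside 71.5% of all bins of both tables and 444 of 718 members. The median size of change on this list was 0.15 in females and 0.30 in males. The same 39 Myh7 bins are among these 94. They share 1 gene row and are not separate cases. RBM20 targets were placed on that list from general knowledge of the field, and the lists were drawn up with earlier results of these data known.

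**Figure D3:**
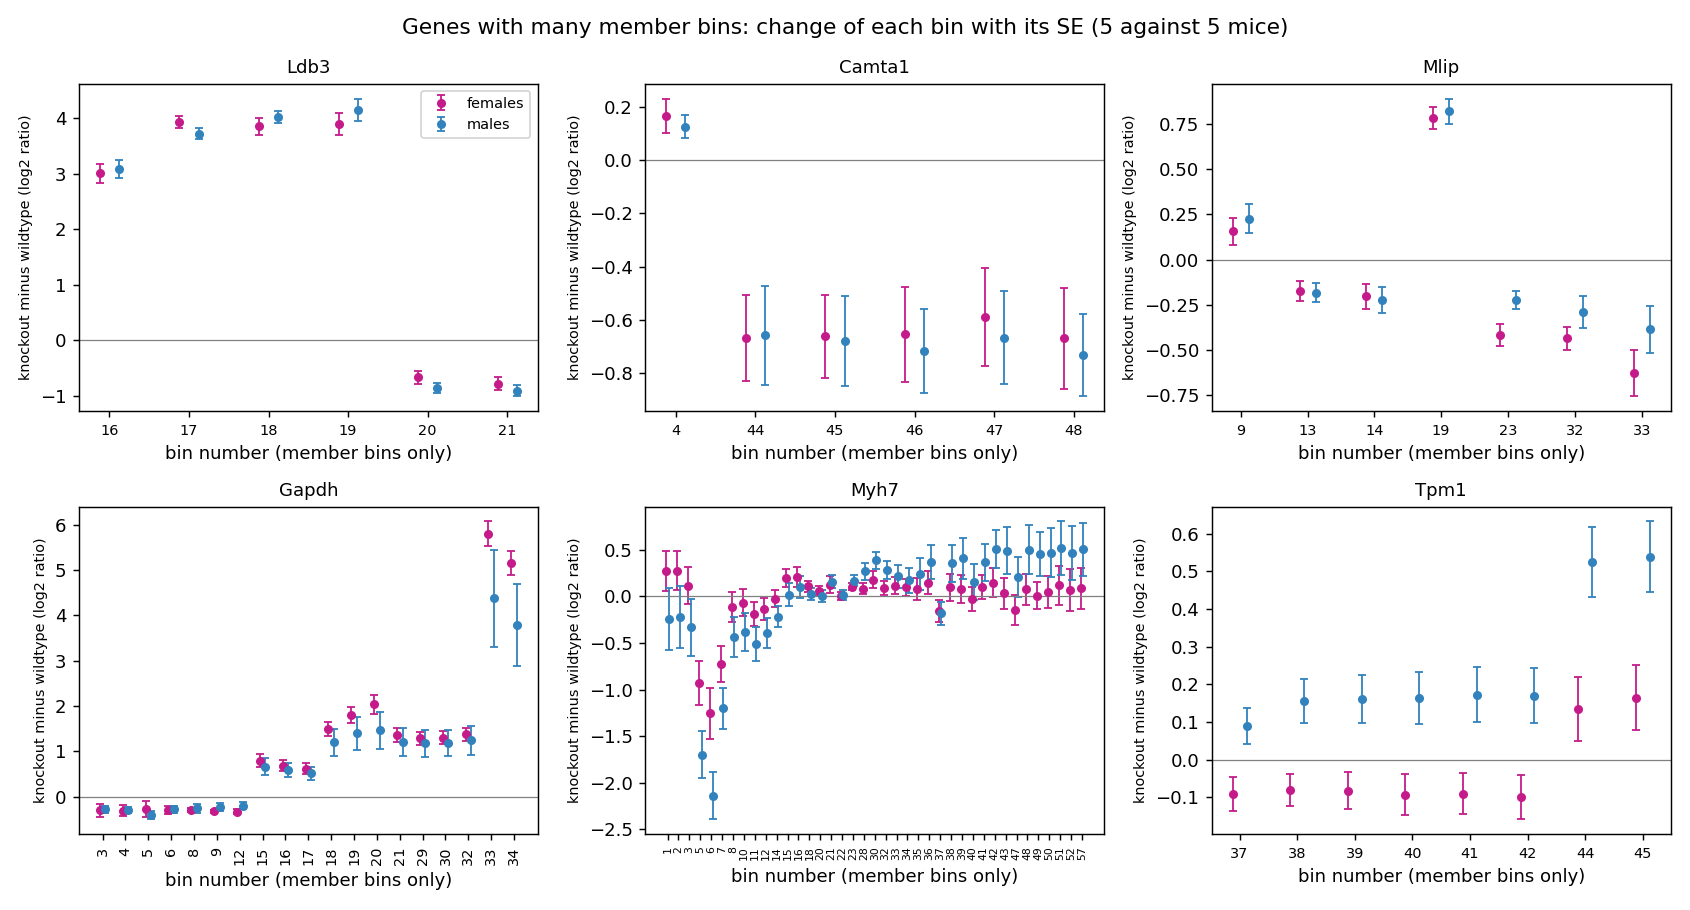
Knockout minus wildtype log2 ratio (vertical axis) of each member bin of Ldb3, Camta1, Mlip, Gapdh, Myh7 and Tpm1, by bin number (horizontal axis, members only), in females (magenta) and males (blue) with SE over 5 against 5 mice. In Ldb3, Camta1, Mlip and Gapdh the female and male points lie on the same side of 0 for every bin, while Tpm1 bins 37 to 42 lie on opposite sides.

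The 5 member bins of 2310002L09Rik (chr4:73857608-73869083, minus strand), a gene known by a clone name only, were split between the genotypes. Bin 1 held 3, 1, 1, 0 and 0 reads in the wildtype females and 305, 308, 217, 95 and 271 in the knockout females. In males the reads were 5, 0, 0, 0 and 2 in wildtypes and 311, 222, 274, 299 and 273 in knockouts. The bin was thus at or near 0 in all 10 wildtypes, and its ratio was 12.2% ± 1.1 in knockout females and 11.8% ± 1.3 in knockout males; its fold depends on the added reads and is not given. Bin 4 held 56.6% ± 3.0 in wildtype and 8.56% ± 0.66 in knockout females, and 59.3% ± 3.5 and 8.45% ± 0.92 in males, and the changes of bin 3 were -2.30 and -2.32. Bin 5 went the other way, from 28.9% ± 0.98 to 58.8% ± 2.3 in females and from 26% ± 2.3 to 59.0% ± 0.98 in males, as did bin 6, by 0.80 and 0.91. All 5 bins were apart in both sexes, and the gene's level was higher by log2 fold changes of 0.98 and 1.1 in the authors' deposited table.

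Among mitochondrial and energy genes, Ndufv3 (chr17:31739089-31750305, plus strand) held 4 member bins. It encodes a subunit of respiratory complex I known to exist in a short and a long form. Bin 8 held 2.96%, 2.76%, 2.91%, 4.42% and 5.0% in wildtype females and 20.4%, 17%, 18.2%, 15.3% and 17.6% in knockout females. Wildtype males held 4.02%, 3.72%, 4.03%, 3.68% and 3.55%, and knockout males 14.2%, 16.7%, 15.3%, 16.4% and 16.5%. All knockouts exceeded all wildtypes, by 5.03-fold in females and 4.15-fold in males. Bins 4 and 5 were lower in the knockouts, bin 5 at 85.8% ± 1.5 against 70.1% ± 1.8 in females and 85.2% ± 0.34 against 72.2% ± 0.80 in males. The gene was lower as a whole, by log2 fold changes of -0.54 and -0.63 in the authors' deposited table. Across the 33 metabolic genes with a member, 41 of 73 bins agreed in direction, beside 71.5% of all bins of both tables. Apart in both sexes were 8, beside 12.7% of all bins. The 8 were Gapdh bins 6, 33 and 34, Ndufv3 bins 4, 5 and 8, Aldoa bin 33 and Sdhb bin 6, the last named after its values were seen.

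**Figure D4:**
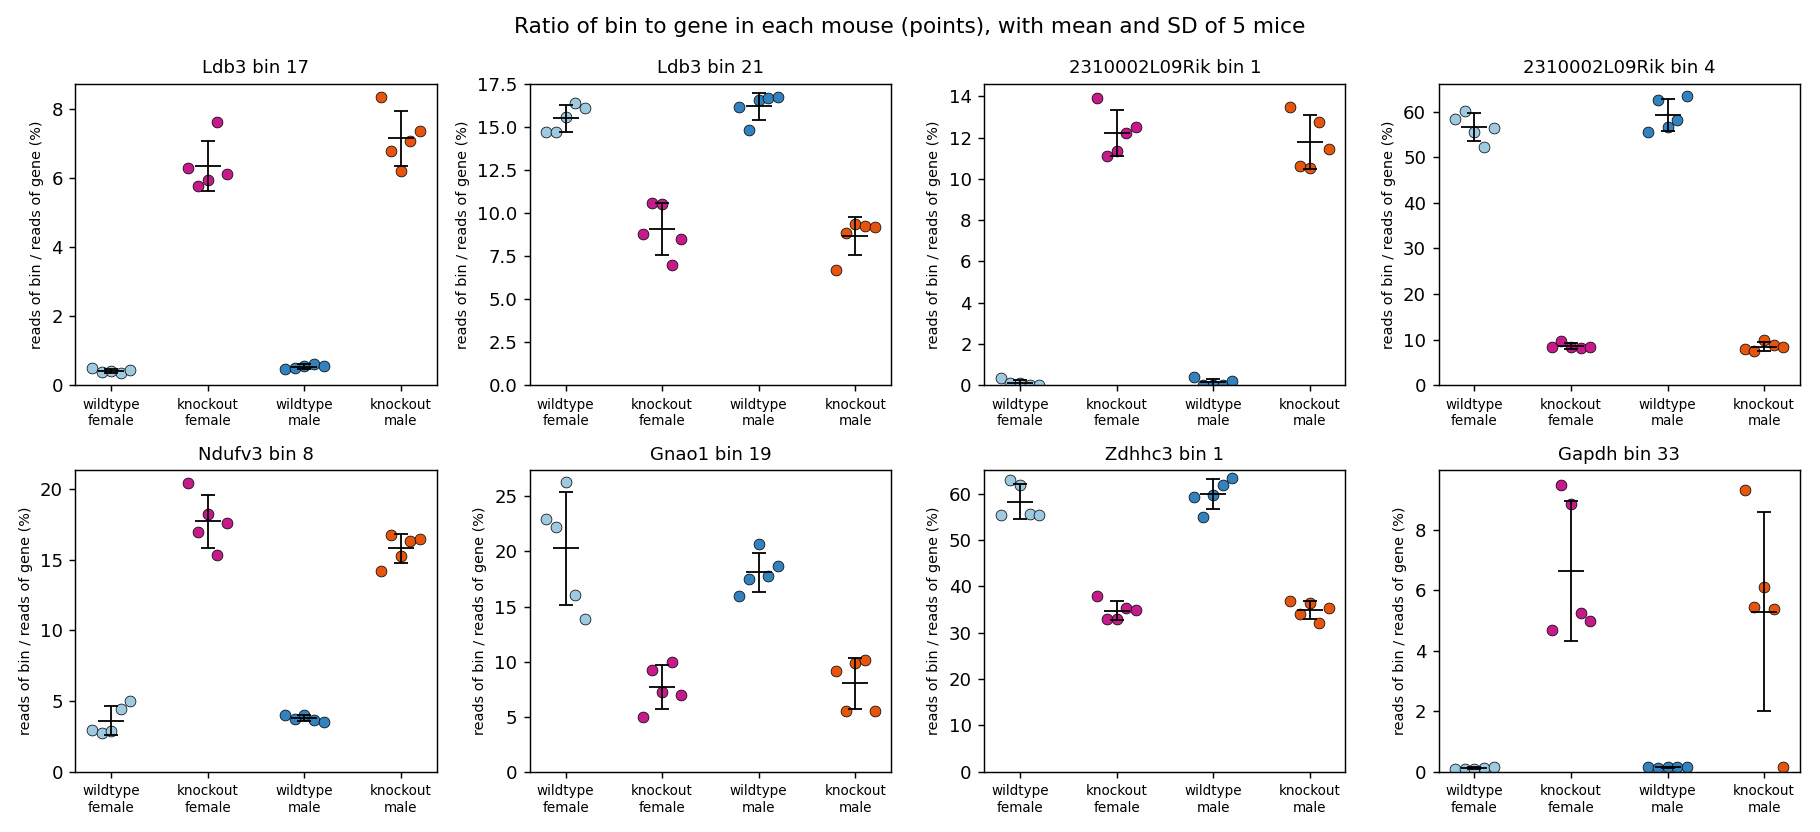
Ratio of bin reads to gene reads in percent (vertical axis) in each of the 20 mice (points) for 8 bins, by genotype and sex (horizontal axis), with the mean and SD of 5 mice as bars. In the first 7 panels the knockouts lie well apart from the wildtypes in both sexes, while in Gapdh bin 33 a knockout male at 0.164% lies next to the wildtypes.

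Gapdh (chr6:125138678-125143430, minus strand), the glycolytic enzyme often used as a reference gene, held 19 member bins, all of the same direction in both sexes. Bins 3 to 12 were lower in the knockouts, with changes of -0.20 to -0.40 in males, and bins 15 to 34 were higher. Bin 33 held 0.101%, 0.0964%, 0.0942%, 0.118% and 0.168% in wildtype females, and 4.71%, 9.50%, 8.85%, 5.24% and 4.98% in knockout females. In wildtype males it held 0.158%, 0.129%, 0.151%, 0.155% and 0.145%, and in knockout males 9.33%, 5.46%, 6.11%, 5.38% and 0.164%. So 9 of the 10 knockouts were far above the wildtypes, and knockout male ko_m_130 was at the wildtype level, just above the highest wildtype male and below the highest wildtype female. The same mouse stood apart along the gene: in 16 of the 19 bins the other 9 knockouts did not overlap the 10 wildtypes, and in 15 of these 16 ko_m_130 lay within the wildtype range. Its Rbm20 bins 6 and 7 had no reads, and its ratios in Ldb3 bin 17 (7.34%) and 2310002L09Rik bin 1 (11.4%) were those of a knockout. The male change of bin 33 was 4.37 ± 1.1 with this mouse and 5.43 without it, beside 5.80 ± 0.27 in females. The level of Gapdh differed little between the genotypes, with log2 fold changes of 0.00 in females and 0.18 in males in the authors' deposited table. Gapdh has many near-identical pseudogene copies, so which locus gave these reads is uncertain.

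Of the other metabolic genes, Aldoa, the glycolytic aldolase, had a bin 33 at 0.248% ± 0.032 in wildtype and 0.455% ± 0.053 in knockout females, and at 0.242% ± 0.021 and 0.496% ± 0.078 in males. Every knockout was above every wildtype, although the bin is a small part of the gene. Ckm bin 3, in the gene of muscle creatine kinase, was higher by 0.58 ± 0.18 in females, where mice overlapped, and by 0.95 ± 0.07 in males, where they did not.

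Signalling and calcium-related genes held a few bins with large changes. Gnao1 (chr8:94536594-94696016, plus strand), which encodes the alpha subunit of the Go protein and has alternative last exons, had 1 member. Bin 19 held 23%, 22.2%, 26.3%, 16% and 13.9% in wildtype females and 4.96%, 9.22%, 7.25%, 9.98% and 6.95% in knockout females. Wildtype males held 15.9%, 17.5%, 20.7%, 17.8% and 18.7%, and knockout males 9.14%, 5.51%, 9.86%, 10.1% and 5.56%. No knockout reached a wildtype of its sex, and the ratio was 2.64-fold lower in females and 2.33-fold lower in males. The gene's level moved the other way, with log2 fold changes of 1.68 and 1.54 in the authors' deposited table, and the bin's reads per library were higher in the knockouts by 0.35 and 0.34. Ano10, of the anoctamin family of ion channels and lipid scramblases, was lower as a whole, at -1.37 and -1.44 in the authors' deposited table. Its bin 5 was lower still, at 21.8% ± 0.59 against 12.7% ± 2.3 in females and 21.9% ± 1.8 against 12.2% ± 1.7 in males, without overlap. Over the calcium handling and ion channel list, 10 of 12 bins in 8 genes agreed in direction, beside 71.5% of all bins of both tables. Apart in both sexes were 2, both in Ano10, beside 12.7% of all bins of both tables. Trdn bin 51, in the gene of the junctional protein triadin, was higher by 0.27 ± 0.07 and 0.33 ± 0.11, and Atp2a2 bin 4, in the gene of the calcium pump SERCA2, by 0.32 ± 0.13 and 0.27 ± 0.07, although per read in the library the male change was -0.25. Abcc9, a potassium channel subunit and also a marker of mural cells, had a bin 4 that changed by -0.61 ± 0.11 in females and -0.23 ± 0.10 in males. The summed level of the 10 mural markers was 10883 to 12583 in wildtype and 8142 to 11095 in knockout females, and 8373 to 10058 and 7325 to 8317 in males, and its part in the Abcc9 value was not tested.

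Among membrane and trafficking genes, Mlip and Zdhhc3 each had bins that were higher and bins that were lower in the knockouts of both sexes. In Mlip, which encodes a lamin-interacting protein of muscle, bin 19 held 14.6% ± 0.96 in wildtype and 25.2% ± 1.7 in knockout females, and 13.5% ± 1.3 and 23.8% ± 0.99 in males. Knockouts and wildtypes were apart in both sexes. Bins 13, 14, 23, 32 and 33 of Mlip were lower in both sexes, with changes of -0.17 to -0.63 in females and -0.18 to -0.39 in males. Zdhhc3, a palmitoyltransferase of the Golgi named after its values were seen, had a bin 1 of 55.5%, 63.0%, 61.9%, 55.7% and 55.4% in wildtype females and 37.8%, 32.9%, 32.9%, 35.4% and 35.0% in knockout females. In males the values were 59.4%, 54.9%, 59.8%, 61.8% and 63.5% against 36.8%, 34.1%, 36.3%, 32.1% and 35.3%. The gap between genotypes was wider than the whole spread within any group, while Zdhhc3 bin 3 was higher by 0.61 ± 0.12 and 0.35 ± 0.09. Lnpep, an insulin-regulated membrane aminopeptidase, had a bin 3 of 17.4% ± 3.2 against 8.38% ± 1.7 in females and 15.9% ± 2.2 against 9.31% ± 2.6 in males, where 1 knockout at 13.9% overlapped the wildtypes. Kif1b bin 2, in the gene of a mitochondrial and vesicle motor, was higher by 0.58 ± 0.09 and 0.33 ± 0.14 without overlap. The membrane traffic list counted 16 of 19 bins of the same direction, beside 71.5% of all bins of both tables.

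In the cytoskeleton and adhesion list, 7 of 13 bins agreed in direction, beside 71.5% of all bins of both tables. Lrrfip1, which encodes a nucleic-acid- and actin-associated protein, had a bin 36 of 22.3% ± 2.2 in wildtype and 14.1% ± 1.4 in knockout females, and 17.5% ± 1.7 and 11.9% ± 1.2 in males, without overlap in either sex. Lmo7 bin 25, in the gene of a LIM protein of cell junctions, was higher by 0.35 ± 0.12 and 0.55 ± 0.13. Fnbp1 bin 6, in the gene of a membrane-bending protein, changed by -0.28 ± 0.14 and -0.29 ± 0.10.

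Genes of transcription and RNA binding held few members. Camta1, a calmodulin-binding transcription activator, had 5 neighbouring bins, 44 to 48, that were all lower, with changes of -0.59 to -0.67 in females and -0.66 to -0.73 in males. Bin 48 held 7.79%, 6.66%, 6.73%, 6.74% and 5.45% in wildtype and 2.84%, 4.91%, 5.14%, 4.93% and 3.52% in knockout females. In males it was 7.55%, 6.85%, 6.86%, 5.39% and 6.12% against 4.17%, 2.89%, 3.57%, 4.57% and 4.73%. All 5 bins were apart in both sexes, while Camta1 bin 4, at over 56% of the gene's reads, was 0.17 and 0.12 higher. Celf1, itself a splicing regulator, had a bin 31 at 8.92% ± 0.74 against 13.6% ± 1.4 in females and 9.07% ± 0.38 against 14.4% ± 1.7 in males, without overlap. Qk bin 10, Hnrnpa2b1 bin 5 and Rbm39 bin 57, in genes of other RNA-binding proteins, differed by 0.23 to 0.45 in size, and mice overlapped in at least 1 sex in each. Among growth factors, Tgfb2 bin 1 changed by -0.25 ± 0.05 and -0.50 ± 0.07 without overlap, in a gene whose level was higher by 1.35 and 1.84 in the authors' deposited table; per read in the library the bin was higher, by 1.18 and 1.29. Fgf1 bin 3 was higher by 0.29 ± 0.07 in both sexes. In the protein turnover list, 2 of 4 bins agreed, beside 71.5% of all bins of both tables. They were Ubb bin 1 at 0.05 and 0.12 and Kbtbd12 bin 2 at -0.08 and -0.16.

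Myh7, the slow myosin heavy chain, held 39 members, more than any other gene. On the opposite strand lie Mhrt (chr14:55206135-55211806) and the predicted gene Gm31251, both overlapping Myh7 (chr14:55208141-55232083, minus strand). The level of Myh7 was higher in the knockouts by log2 fold changes of 1.65 in females and 2.56 in males, and that of Mhrt lower, at -0.55 and -1.57, in the authors' deposited table. Mhrt bin 6 held 537, 757, 805, 742 and 1974 reads in wildtype females and 4614, 3330, 2874, 732 and 3940 in knockout females. In males it held 699, 408, 835, 990 and 948 against 3910, 5542, 5384, 2632 and 5276. The 732 belong to the mouse with a single library. The reads of the bin were thus higher where the Mhrt row was lower, and its ratio was 184% ± 73 in wildtype and 3080% ± 1200 in knockout males. The 4 Mhrt and 3 Gm31251 bins all moved this way and all exceeded 100%. Within Myh7, bins 5, 6 and 7 were lower and apart in both sexes, with changes of -0.73 to -1.25 in females and -1.20 to -2.14 in males, and the other 36 overlapped in at least 1 sex. Bin 6 exceeded 100% in the wildtypes, at 201% ± 71 and 233% ± 55, and per read in the library it was higher in the knockouts, by 0.48 and 0.40. Myl12b, a regulatory light chain of non-muscle myosin, had 13 members with group means of 148 to 9778 reads per mouse, while its own gene row averaged 8.76 normalized counts in wildtype females and 9.07 in wildtype males.

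Ordered by the smaller of the female and male changes in size, the members of opposite direction were led by bins over 100%, among them Wdr38 bins 26, 27 and 28, Vps25 bin 28, Ifitm10 bins 32 and 33, C430014B12Rik bin 6 and Nr1i3 bin 25. Their gene rows averaged under 9 normalized counts in every group, so the ratio rests on few gene reads or none. Nr1i3 had 0 normalized counts in each wildtype male, and 0, 0.744, 0, 0 and 0 in the knockout males. Wdr38 had 0, 0.717, 0, 3.26 and 0 in the wildtype males. In a mouse with 0 gene reads, the denominator is only the 0.5 added reads. Wdr38 bin 28 had changes of 0.66 ± 0.44 in females and -1.33 ± 0.94 in males, and without wildtype male wt_m_125 the male value was -2.07. The mean ratio in percent, over mice with gene reads, had the other sign in males. Per read in the library, the male change of Wdr38 bin 28 was 0.41, the same sign as in females, and the female change of Vps25 bin 28 was 0.04. At a ratio of at most 100%, Itgb1 bin 2, in the gene of integrin beta-1, was at -0.40 ± 0.25 and 0.56 ± 0.26, and its mice overlapped in both sexes.

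The sexes were compared directly in 1 model of all 1798 bins of both tables with a gene row and a mean of at least 10 reads per mouse, with edgeR's quasi-likelihood test, the gene reads as offset and Benjamini-Hochberg adjustment over all bins. All 1798 bins, and not the members alone, were listed in both tables on the same mice. These tests, their adjusted p-values and the share over all bins are therefore affected by the choice and support nothing by themselves. A bin with opposite changes in the sexes had to be listed in both to be here. The male and female knockout changes differed at an adjusted p under 0.05 in 37 of 718 members, 20 higher in males and 17 lower, beside 7.01% of all bins tested. In 34 of the 37 the female and male changes had opposite signs. Knockout males and knockout females differed in 19 members, beside 1.33% of all bins, of which 6 lie in Myl12b, 4 in Mhrt and 3 in Gm31251; in a fit of the bins with a ratio of at most 100%, chosen after seeing the data, it was 0. Wildtype males and females differed in 0 of 1798 bins (0%) by edgeR, in 22 by DESeq2 and in 5 by limma, and 360 had an unadjusted p under 0.05.

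Tm9sf2 bin 14, in the gene of an endosomal membrane protein, had the lowest p-value of all members for unequal male and female changes. It held 6.78%, 6.92%, 7.85%, 7.46% and 6.43% in wildtype females and 5.61%, 6.04%, 5.87%, 5.28% and 6.39% in knockout females. In males the order was reversed, with 6.39%, 5.59%, 6.37%, 6.01% and 5.57% in wildtypes and 7.21%, 6.82%, 6.65%, 7.34% and 6.54% in knockouts. Neither sex's groups overlapped, and the male change exceeded the female change by 0.47 (edgeR adjusted p = 0.0358). Myot, the Z-disc protein myotilin, had bins 3 and 11 that moved against each other. Bin 3 held 26.4% ± 1.7 against 24% ± 1.3 in females and 21.8% ± 2.2 against 26.4% ± 2.3 in males, and bin 11 held 31.9% ± 2.3 against 34.7% ± 1.5 and 37.8% ± 2.2 against 32.2% ± 2.3 (both edgeR adjusted p = 0.0367). Pdzd11 bin 9, Vamp2 bin 11 and Tpm4 bin 13 were lower in knockout females and higher in knockout males, and the male change exceeded the female change by 0.52, 0.42 and 0.41. Without knockout female ko_f_95, wildtype female wt_f_143 or knockout male ko_m_127, each left out alone, 0 of the 1798 bins were called for this difference, and without knockout female ko_f_150 it was 241, beside 126 with all mice.

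**Figure D5:**
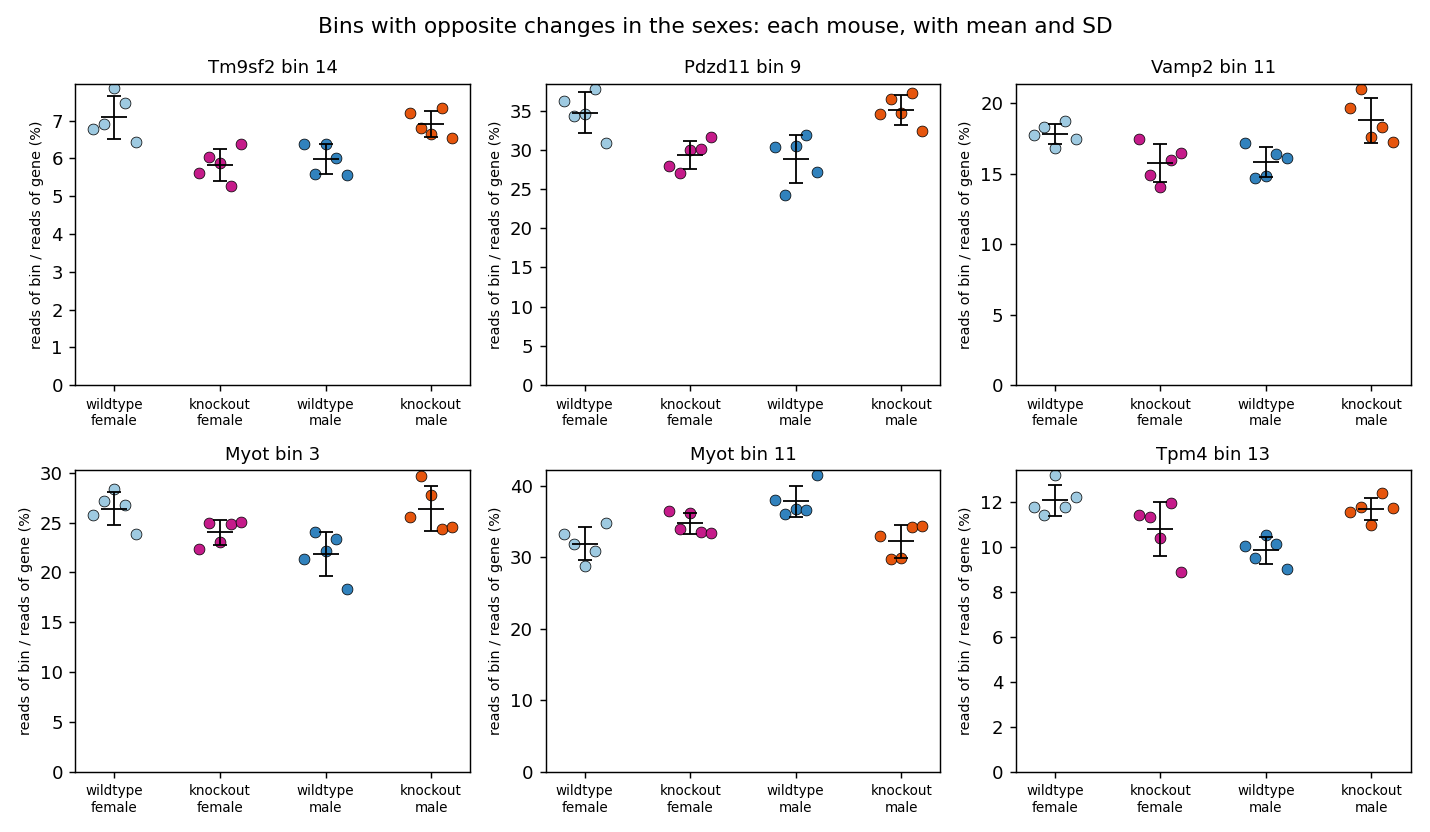
Ratio of bin reads to gene reads in percent (vertical axis, from 0) in each mouse for 6 bins, by genotype and sex (horizontal axis), with the mean and SD of 5 mice. In Tm9sf2 bin 14 the knockouts lie below the wildtypes in females and above them in males; in the other 5 panels at least 1 sex overlaps.

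The members nearest to the read minimum were BC004004 bin 13, at a mean of 50 reads per library in its lower table, and Hand2os1 bin 17, at 50.1. Just outside were Slc44a1 bin 26 at 49.6 and Sorbs2 bin 88 at 49.4. The members nearest to the listing limit by the authors' deposited tables were Apc-ps1 bin 16, with a larger p of 0.05, and Oaz2 bin 6, with 0.0498. Bin coordinates are not used here, since the tables give the span of the gene for each bin, so no sequence is shown for any bin.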

How the data were processed

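RNA was sequenced from left ventricles of 20 mice. Per the submitters' processing notes, STAR 2.7.10a, mouse build GRCm39 and DESeq2 were used; the counting program and its use of strand are not given in the sources used here. The deposited exon tables hold raw read counts per DEXSeq bin with 1 column per library, and the authors' p-values and adjusted p-values. The authors deposited gene tables of counts divided by a size factor (a normalized signal), with log2 fold changes. Whole gene reads were recovered from these to within 1e-06 reads, in place of the gene counts the design assumed. 1 column of the female gene table and 1 of the female exon table matched no label and were not used. Libraries of a mouse were summed. Sex contrasts were fitted with edgeR 4.0.16, with limma 3.58.1 and DESeq2 1.42.0 as alternatives (R 4.3.3), with scripts tested on simulated counts. There, the edgeR test of the difference between the sexes called 12% of bins with a true log2 difference of 0.5, 62% at 1 and 54% at -1. Only knockout males were changed in the simulation, so the power to call a difference between wildtype sexes was not tested. Nothing used here says how mice were housed or bred. The edgeR, limma and DESeq2 p-values of the sex contrasts measure the spread between these mice. The authors' exon tables hold 1 column per library, and how their p-values treated the 2 libraries of a mouse is not given. Those p-values, which chose the members, may therefore count libraries as replicates. Named were the 15 genes whose strongest bin had the largest change in the same direction in both sexes (no predicted or clone names), up to 4 genes per gene list, up to 10 members of opposite direction, the 10 genes with most members, the 10 members with the smallest p in each sex contrast, and the bins at the read minimum; exceptions are marked, and a few named genes are not reported here. Members and lists were chosen with earlier results of these data known. Minima, scaling, pseudocounts, tools and left-out mice were varied.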

Additional observations from a re-analysis of the deposited data

Results flagged for a closer look

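Per-mouse ratios were examined in 18 bins that had the largest changes or came from genes with most members. Camta1 bin 48, Mlip bin 19 and Tnnt2 bin 8, also from genes with most members, were not examined. In the 18 bins, 72 groups of 5 mice were searched for a mouse far from the other 4, and 6 had one. By chance about 1 in 20 groups would. In wildtype females, 1 mouse was at 0.348% in 2310002L09Rik bin 1, 1 at 20.8% in Ano10 bin 5 and 1 at 681% in Mhrt bin 4. In knockout females, 1 mouse was at 0.362% in Aldoa bin 33 and 1 at 3.63% in Ldb3 bin 19. In knockout males, 1 mouse was at 13.9% in Lnpep bin 3. In none of the 6 did the far mouse change the direction of the bin.

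In 13 named bins the knockout change differed between the sexes by edgeR's test of the difference, which called 126 of 1798 bins (7.01%). Of these 13, 10 were named for having the smallest p in this same contrast, so their number follows from the choice and supports nothing, and 0 bins were called without knockout female ko_f_95, knockout male ko_m_127 or wildtype female wt_f_143, each left out alone. The male change minus the female change, on the log2 scale, was 1.81 in Mhrt bin 6 and 1.51 in Mhrt bin 7, both higher in the knockouts of both sexes. It was positive with opposite directions in Tm9sf2 bin 14 (0.475), Pdzd11 bin 9 (0.522), Vamp2 bin 11 (0.421), Tpm4 bin 13 (0.414), Myot bin 3 (0.41), Perp bin 2 (0.334) and Prdx2 bin 9 (0.242). It was negative with opposite directions in Idh3g bin 1 (-0.512), Myot bin 11 (-0.353), Rras bin 9 (-0.327) and Tfeb bin 33 (-0.307).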

How the results depend on the processing

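The count of 444 members with the same direction was 437 to 449 when each mouse was left out, 442 without the 4 mice with Myl7 over 500 normalized counts, and 529 with the library total in place of the gene reads. It was 692 of 1070 at a minimum of 20 reads, 294 of 502 at 100, 140 of 147 at the authors' adjusted p, and 251 of 450 with 1 bin a gene. The 68 members apart in both sexes became 117 with the library total, 105 and 45 at minima of 20 and 100, 69 to 87 without each mouse, and 108 without the 4 mice, where fewer mice make separation easier. At the authors' adjusted p, 157 members would remain. The difference between the sexes was called in 126 bins by edgeR, 53 by DESeq2, 22 with library size, 64 at a minimum of 50, and 0 to 241 when each mouse was left out. Wildtype sexes gave 0 bins, 22 by DESeq2, 5 by limma, 5 with library size and 0 to 8 without each mouse. Knockout sexes gave 24, 4 with library size, 0 among bins with a ratio of at most 100% and 0 to 31 without each mouse. With the library total, 21 of 156 named values changed sign, 9 of them in bins whose mice did not overlap in that sex: Gnao1 bin 19 (0.35 and 0.34), Myh7 bin 6 (0.48 and 0.40), Tgfb2 bin 1 (1.18 and 1.29), Synpo2l bin 5 (0.99), Myot bin 11 (1.25) and Atp2a2 bin 4 (-0.25), the last 3 in males. The other 12 include Synpo2l bin 5 (0.57) and Myot bin 3 (1.61) in females and Wdr38 bins 26, 27 and 28 (0.44, 0.39 and 0.41) in males; by construction this setting includes the change of the gene. The alternatives on ratio, Myl7 and 1 bin a gene were chosen after seeing the data. No paired analysis was possible because no mouse number occurs in more than 1 group.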
